A study of Arabidopsis thaliana with 15 samples.

Results

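The hypocotyl of Arabidopsis thaliana was compared between day 10 and day 2 of long days, with 3 arrays for each day out of 15 arrays in the series. The 6 arrays were chosen by the day after the day length switch that the labels give, and by no measured value. The comparison is described across all genes that have a probe set of their own: 16722 of the 38408 probe sets are annotated to exactly 1 gene, they cover 16550 genes, and 1805 of those genes carry a symbol other than a locus tag. Col-0 plants, the common laboratory accession, grew for 6 weeks in short days of 8 h light and were then moved to long days of 16 h light at 22 °C, which induces flowering. Day 10 and day 2 are both in long days, each array holds RNA of a pool of 8 hypocotyls, and the remaining 9 arrays are of days 0, 1 and 4. The labels give no difference of genotype or treatment between the groups.

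The hypocotyl is the stem between root and rosette. It thickens when a ring of dividing cells, the vascular cambium, forms xylem towards the inside and phloem towards the outside, and once the plant flowers its xylem begins to make fibres, cells with thick walls rich in cellulose, xylan and lignin. Abscisic acid (ABA), the hormone of drought and seed dormancy that the series' title ties to fibre differentiation, acts through receptors and kinases that switch on protective genes.

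The day 10 plants were 8 days older than the day 2 plants and had spent those 8 days in long days, so plant age and time after the switch cannot be told apart here. The labels give neither an hour of harvest nor a batch, and an effect of either was not tested. In whole hypocotyls, fewer cells of a type and less RNA per cell cannot be told apart. Arrays of day 10 correlated with each other at r = 0.986 to 0.987, arrays of day 2 at 0.984 to 0.987, and a day 10 array with a day 2 array at 0.968 to 0.973. These correlations run across probe sets, which are not independent of each other. Root hair markers stood low in both groups: EXPA7, an expansin of root hairs, had intensities of 24.9, 27 and 32.8 on day 10 and 32.8, 34.4 and 24.1 on day 2, around the lower quartile of an array (24.2 to 24.6 over the 6 arrays), and EXPA18 had 11.6, 15.6 and 15.8 on day 10 and 17.3, 15.2 and 14.5 on day 2. XTH26, the third measured marker, had 26.4, 26.8 and 28.5 on day 10 and 24.9, 25.9 and 27.7 on day 2, and none of the 3 passed the test. Of the 2 measured markers of floral organs, UFO had 24.9, 28 and 22.2 on day 10 and 25.4, 28.2 and 29.9 on day 2, and did not pass the test. The other, SPT, was higher on day 10 by 1.54 on the log2 scale, with its intensities given below. No member of the lists for suberin, xylem cell death, and the regulators and cellulose synthases of secondary walls could be matched to a probe set with 1 gene, so the defining markers of fibres and of the outer bark are not analysed here.

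On day 10 the hypocotyl had lower levels than on day 2 of transcripts for flavonoid and anthocyanin synthesis (5 of 6 measured genes fell), photosynthesis (9 of 11) and cell division (5 of 6). Levels were also lower for the ER body with its jacalin lectins and for sugar transport (6 of 18). In the list of glucosinolates and the ER body 9 of 11 fell, all of them ER body or lectin genes. Of all genes, 12.7% fell. Levels were higher for measured genes of xylan synthesis (2 of 3 rose) and autophagy (7 of 10), where 14.6% of all genes rose. Most symbols of the lists were not measured. Measured were 3 of 27 for xylan synthesis, 6 of 52 for cell division and 10 of 37 for autophagy. The lists were chosen with earlier results of these data known, so these counts describe the change and do not test it. The largest fall in a gene with a symbol was that of AT5MAT, which attaches malonate to anthocyanins, at 24.6-fold, and the largest rise was that of GH9B5, a glycosyl hydrolase of the family that holds plant cellulases, at 7.15-fold (n = 3 pools per day for every fold given).

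In limma's fit over all arrays, 10300 of 38408 probe sets (26.8%) differed between day 10 and day 2 at a Benjamini-Hochberg adjusted p below 0.05. Taking for each gene its brightest probe set, 2422 of 16550 genes (14.6%) were higher on day 10 and 2106 (12.7%) were lower. A change of at least 2-fold was seen in 251 genes that rose (1.52%) and in 353 that fell (2.13%). The pools of the 2 days did not overlap in 6793 genes (41.0%), among them 4454 of the 4528 genes past the test. The median log2 difference over all genes was 0.01. Values given with ± are log2 differences, day 10 minus day 2, with their SE. The shares and the median are the background for the counts and medians of each gene group. Large falls went further than large rises: the 12th largest fall was 12.1-fold and the 12th largest rise 5.54-fold.

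**Figure D1:**
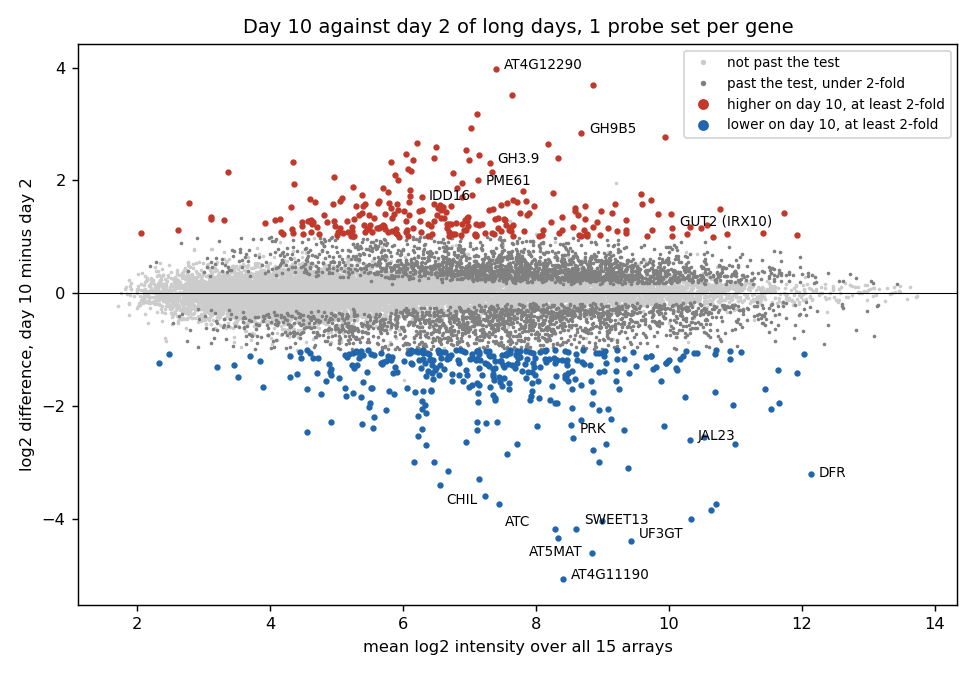
Each point is 1 of 16550 genes, with its mean log2 intensity over all 15 arrays on the x axis and its log2 difference, day 10 minus day 2, on the y axis. Red and blue points are the 251 genes that rose and the 353 that fell by at least 2-fold, and the anthocyanin genes AT5MAT, UF3GT, DFR and CHIL lie among the lowest points.

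Most of the largest changes belong to genes for which the annotation gives a locus tag in place of a symbol. Their roles were not looked up here, so some may belong to the pathways described below. AT4G11190 had intensities between 18.4 and 27.8 on day 10, against 860, 661 and 697 on day 2, a 33.7-fold fall (log2 difference −5.08 ± 0.14 SE, limma adjusted p = 2.62e-10). The day 10 intensities of AT4G11190 lie around the lower quartile of an array, so its fold rests on signal near the bottom of the range. AT1G62333 fell 20.3-fold, AT2G37870 16.5-fold, AT1G03495 16-fold, AT1G03940 14.3-fold, AT4G14090 13.3-fold and AT3G44970 12.1-fold. Among the rises, AT4G12290 had 1669, 1354 and 1574 on day 10, against 90.5, 103 and 100 on day 2, a 15.6-fold rise (3.97 ± 0.19, adjusted p = 4.91e-08). In AT4G11190 and AT4G12290 every pool of 1 day lies far outside the pools of the other. The largest changes, here and below, were taken only among genes whose pools do not overlap, so such gaps are no separate support. AT1G22480 rose 12.9-fold and AT1G27020 11.4-fold. AT5G61590, whose synonym DEWAX stands for a repressor of wax synthesis, had 744, 391 and 464 on day 10, against 49.9, 60.8 and 60.4 on day 2, and rose 9.03-fold (adjusted p = 2.18e-06). AT5G56840, AT1G15125, AT3G13760, AT1G33790, AT2G31930 and AT5G42610 rose between 5.54-fold and 7.65-fold. The day 2 pools of AT1G61840 were uneven, with 710, 713 and 782 on day 10 and 271, 124 and 48.4 on day 2, and its 6.24-fold rise has the adjusted p of 0.00252.

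Among genes with a symbol, 280 rose and 333 fell. GH9B5 had intensities of 1613, 1792 and 1934 on day 10, against 267, 250 and 230 on day 2 (2.84 ± 0.17, adjusted p = 2.67e-07). GH3.9, of the family that links amino acids to auxin and related hormones, had 469, 452 and 448 on day 10, against 92.6, 91.9 and 91 on day 2, and rose 4.97-fold (2.31 ± 0.07, adjusted p = 4.25e-10). The day 2 pools of GH3.9 lie almost on top of each other and far below day 10. IDD16, a zinc finger transcription factor, rose 3.35-fold. BGLU31, of the beta-glucosidase family, rose 3.06-fold. The IQ-domain gene iqd21, whose family binds calmodulin, rose 3-fold. SPT (SPATULA), a bHLH factor that shapes carpels and restrains growth of leaves, had 450, 466 and 487 on day 10, against 169, 159 and 155 on day 2, a 2.9-fold rise (1.54 ± 0.10, adjusted p = 4.57e-07). FAMT, annotated as a farnesoic acid methyltransferase, fell 9.79-fold with 32.7, 28.7 and 24.8 on day 10 and 239, 360 and 254 on day 2. JRG21, named as a jasmonate-regulated gene, fell 8.94-fold with 22.1, 25.3 and 24.4 on day 10 and 172, 227 and 250 on day 2. The day 10 values of FAMT and JRG21 lie close to the lower quartile of an array, as did the day 10 means of 64 of the 353 genes that fell by at least 2-fold, which ended below it, so these folds rest on signal near the bottom of the range.

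**Figure D2:**
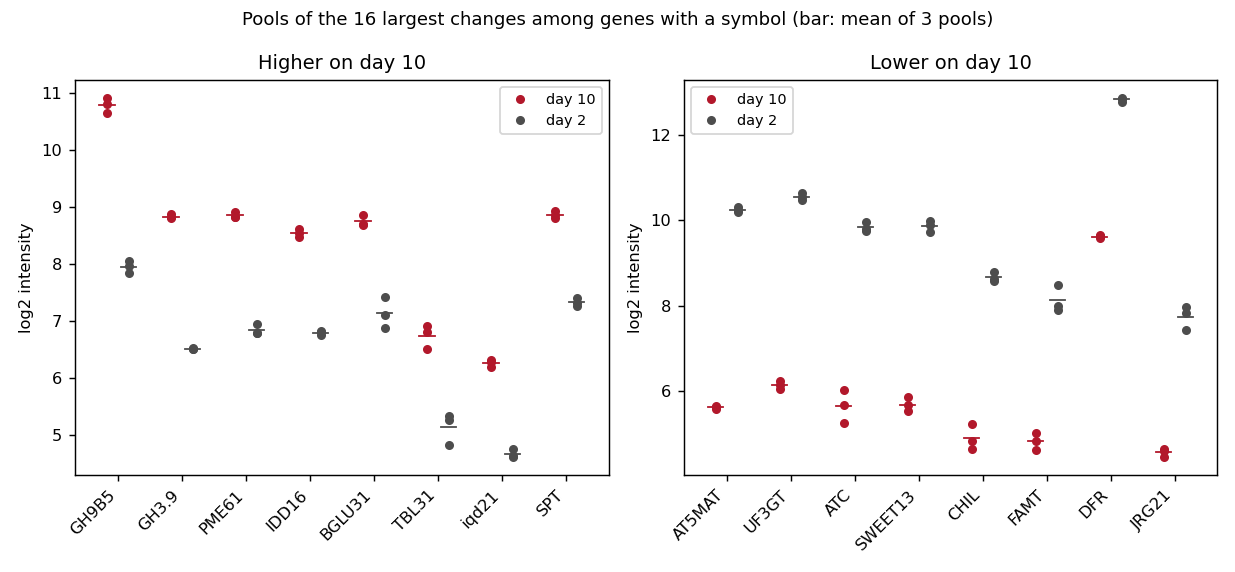
Log2 intensity of the 8 largest rises (left) and the 8 largest falls (right) among genes with a symbol. Points are pools of 8 plants and bars are means of 3 pools, with day 10 (red) left of day 2 (grey). Genes were shown only if the pools of the 2 days do not overlap. The folds run from 2.9 to 7.15 on the left and from 8.94 to 24.6 on the right.

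Anthocyanins are red and purple flavonoid pigments, made by a chain of enzymes in which DFR reduces dihydroflavonols and later enzymes add sugars and acyl groups. Of the 6 flavonoid and anthocyanin genes matched by symbol, 5 fell and 0 rose, with a median log2 difference of −2.44. Genes of the pathway that the annotation holds under a locus tag alone are not among them. AT5MAT had intensities of 49.8, 50.5 and 48.2 on day 10, against 1266, 1163 and 1219 on day 2 (−4.62 ± 0.07, adjusted p = 2.62e-12). UF3GT (UGT79B1), which extends the sugar chain of anthocyanins, had 75.2, 71 and 66.4 on day 10, against 1482, 1421 and 1581 on day 2, a 21.1-fold fall (−4.40 ± 0.09, adjusted p = 2.34e-11). For DFR the intensities were 801, 788 and 767 on day 10, against 7468, 6996 and 7359 on day 2, a 9.26-fold fall (−3.21 ± 0.06, adjusted p = 1.16e-11). The 3 pools of each day lie within a narrow band in these 3 genes, and the bands of day 10 and day 2 are far apart. UGT78D2, which puts glucose on the 3 position of flavonoids, fell 3.2-fold (−1.68 ± 0.25, adjusted p = 3.03e-04). UGT78D1, which puts rhamnose on flavonols, fell 1.66-fold (−0.73 ± 0.07, adjusted p = 1.86e-05), and UGT78D3, which puts arabinose on flavonols, did not pass the test (0.06 ± 0.17, adjusted p = 0.847). CHIL, the chalcone isomerase-like protein that assists the start of the flavonoid pathway, is not in the list and was named for the size of its change: 28.7, 38 and 25.3 on day 10, against 442, 396 and 383 on day 2, a 13.4-fold fall (−3.75 ± 0.12, adjusted p = 1.47e-09).

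ER bodies are spindle-shaped compartments of Brassicaceae cells that store beta-glucosidases, which make toxic products from glucosinolates when tissue is damaged. Of the 11 measured genes of glucosinolates and the ER body, 9 fell and 0 rose, with a median of −1.03. The 9 are ER body or lectin genes. NAI1, the bHLH factor that switches ER body genes on, had 25.1, 35.5 and 33.1 on day 10, against 61.8, 67.5 and 75.2 on day 2, a 2.2-fold fall (−1.14 ± 0.13, adjusted p = 4.28e-05). NAI2, needed to form ER bodies, fell 2.05-fold (−1.03 ± 0.08, adjusted p = 3.05e-06). PYK10, the main beta-glucosidase of ER bodies, had 4638, 4959 and 4841 on day 10, against 7844, 7482 and 7482 on day 2, a 1.58-fold fall (−0.66 ± 0.06, adjusted p = 8.46e-06). The pools of the 2 days are apart in all of these genes, as they are in 4454 of the 4528 genes past the test. BGLU22, another ER body beta-glucosidase, fell 3.72-fold (−1.90 ± 0.15, adjusted p = 2.28e-06). BGLU21, a close relative of BGLU22, did not pass the test (−0.26 ± 0.19, adjusted p = 0.363), nor did the glucosinolate glucosyltransferase UGT74B1 (−0.21 ± 0.08, adjusted p = 0.0808), which passed as lower in 4 alternatives, among them all 3 rescalings (adjusted p down to 0.0229).

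All 5 measured jacalin-related lectins, sugar-binding proteins of which several join PYK10 in large complexes, fell (median −1.18), and these 5 also count in the ER body list. JAL23 had 460, 363 and 292 on day 10, against 2118, 2126 and 2457 on day 2, a 6.1-fold fall (−2.61 ± 0.17, adjusted p = 5.47e-07). In proportion, its day 10 pools differ more among themselves than its day 2 pools and still lie far below them. JAL22 fell 2.3-fold, JAL31 2.27-fold, JAL33 2.02-fold and JAL34 1.88-fold, with adjusted p-values of 1.69e-06, 2.66e-06, 1.05e-05 and 8.36e-05. Relatives of such a family can share probe sequence, and how far they do here was not tested.

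In the wider beta-glucosidase family 8 of 24 genes fell and 3 rose, with a median of −0.24. BGLU47 had 328, 302 and 343 on day 10, against 1909, 1943 and 1875 on day 2, a 5.89-fold fall (−2.56 ± 0.09, adjusted p = 4.12e-09). BGLU33, which releases ABA from its stored glucose ester in the vacuole, rose 2.3-fold with 1921, 2148 and 2094 on day 10, against 889, 901 and 882 on day 2 (adjusted p = 2.43e-06). BGLU24, BGLU44, BGLU16 and BGLU25 fell by 2.22-fold, 1.87-fold, 1.83-fold and 1.38-fold. The rise of BGLU36 (0.37 ± 0.11, adjusted p = 0.0229) was lost in 6 alternatives. BGLU33 is the sole measured member of the list for ABA synthesis, receptors and signalling.

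**Figure D3:**
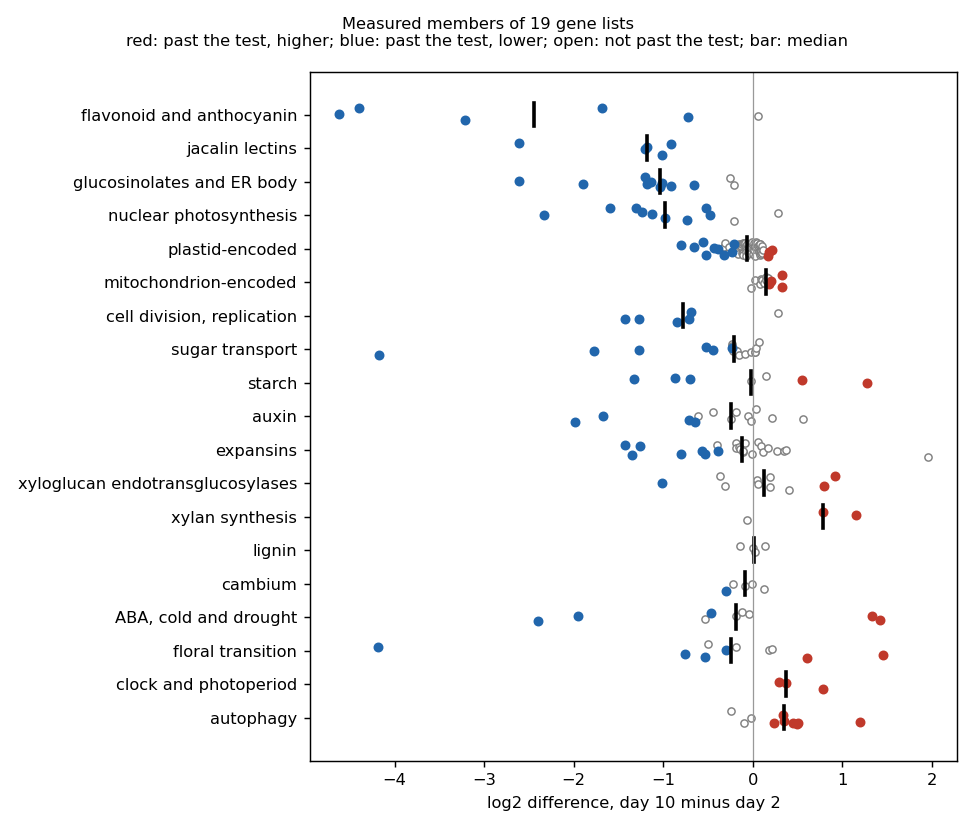
Log2 difference, day 10 minus day 2, of every measured member of 19 gene lists. Red points passed the test and were higher on day 10, blue points passed it and were lower, open points did not pass, and bars are medians. The jacalin lectins all lie left of 0, and in the flavonoid, ER body, photosynthesis and division lists all points past the test do.

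Photosynthesis genes of the nucleus encode the Calvin cycle enzymes and most subunits of the photosystems. They fell in most cases: 9 of 11 measured fell and 0 rose, with a median of −0.98. PRK (phosphoribulokinase), which makes the acceptor of carbon dioxide in the Calvin cycle, had 130, 136 and 109 on day 10, against 589, 617 and 676 on day 2, a 5.04-fold fall (−2.33 ± 0.15, adjusted p = 4.11e-07). SBPASE, another enzyme of that cycle, had 88, 92.7 and 115 on day 10, against 296, 293 and 299 on day 2, a 3.02-fold fall (−1.60 ± 0.10, adjusted p = 3.62e-07). RCA, the activase of Rubisco, fell 1.97-fold (−0.98 ± 0.09, adjusted p = 1.05e-05). The photosystem I subunit gene PSAE-1 fell 2.47-fold, the photosystem II genes PSBW and PSBY fell 2.35-fold and 1.67-fold, and LHB1B2, a light-harvesting protein gene, fell 2.18-fold. LHCB4.1 fell 1.4-fold. The fall of LHCB4.2 (−0.52 ± 0.15, adjusted p = 0.0236) was lost when only the 6 arrays were fitted and without either of day 2 replicates 2 and 3 or day 10 replicates 1 and 3 (adjusted p up to 0.0974). PSAN (−0.21 ± 0.15) and LHCB4.3 (0.28 ± 0.12) did not pass the test. HPR, the photorespiratory hydroxypyruvate reductase, was added after its values were seen: it had 57.4, 56.6 and 75.8 on day 10 and 197, 237 and 222 on day 2, a 3.48-fold fall (−1.80 ± 0.14, adjusted p = 1.75e-06).

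Of 63 measured genes on the plastid genome, 9 fell and 3 rose, at a median of −0.06 that became 0.01 with cyclic loess scaling. The share that fell is close to the 12.7% of all genes, and the share that rose is below their 14.6%. Falls were seen in petN (−0.80 ± 0.08), ndhF (−0.66 ± 0.13), ccsA (−0.55 ± 0.10), psbZ (−0.38 ± 0.06), rps18 (−0.52 ± 0.11), rps16 (−0.43 ± 0.13), psaA (−0.23 ± 0.05) and psbH (−0.20 ± 0.06), and rbcL, the large subunit of Rubisco, had a log2 difference of −0.32 ± 0.05 (adjusted p = 4.30e-04). With the 6 arrays alone the falls of rps18, psaA and psbH and the rises of clpP, rpl36 and rpl20 were all lost. The fall of psbH was lost in 6 alternatives (adjusted p up to 0.116) and that of rps16 in 4. Of 13 genes listed as mitochondrial by symbol stem 4 rose and 0 fell (median 0.15): cox2 and atp1 stood at 0.33 and 0.33, orfX and nad4 at 0.20 and 0.18. None of these 4 calls held with the 6 arrays alone.

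Cell division genes fell in 5 of 6 measured cases, and 0 rose, with a median of −0.78. AUR1, a mitotic Aurora kinase, had 373, 387 and 447 on day 10, against 1132, 999 and 1095 on day 2, a 2.68-fold fall (−1.42 ± 0.10, adjusted p = 1.35e-06). AUR2, its close relative, fell 2.4-fold (−1.26 ± 0.10, adjusted p = 3.21e-06), and AUR3 1.64-fold (−0.71 ± 0.10, adjusted p = 2.40e-04). PRL (MCM7), a subunit of the replicative helicase, had 306, 299 and 356 on day 10, against 557, 576 and 582 on day 2, a 1.79-fold fall (−0.84 ± 0.09, adjusted p = 4.03e-05). POLA3, of the DNA primase complex, fell 1.62-fold. The inhibitor of the cell cycle SIM did not pass the test (0.29 ± 0.15, adjusted p = 0.184). In other lists, HTR12, the histone H3 of centromeres, had 189, 210 and 185 on day 10 and 349, 401 and 381 on day 2, a 1.94-fold fall (−0.95 ± 0.08, adjusted p = 2.53e-06), and KINESIN-12B, a motor of the dividing cell's phragmoplast, fell 1.95-fold, while KINESIN-13A stood at −0.02 ± 0.07. CYCJ18, the sole cyclin measured, fell 1.41-fold (−0.49 ± 0.10, adjusted p = 0.00212). The histone H2B gene HTB2 fell 1.7-fold, a call lost with the 6 arrays alone (adjusted p = 0.0865). Of the 5 histone genes, HIS1-3, a linker histone induced by drought, was the sole one to rise, by 2.51-fold, and HON4 (−0.13 ± 0.06) and MGH3 (−0.06 ± 0.15) did not pass the test, although HON4 passed as lower in 1 alternative.

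Of 5 cambium genes measured, CLE41, a peptide from the phloem that keeps cambium cells dividing, was the sole member past the test (−0.29 ± 0.09, adjusted p = 0.0272), and that call was lost in 5 alternatives, among them the 6 arrays alone (adjusted p up to 0.107). CLE44, which encodes the same kind of peptide, stood at −0.21 ± 0.08 and passed as lower in 2 alternatives, with MOL1, PHV and LHW between −0.08 and 0.13. In the phloem list OPS, which promotes protophloem formation, fell 1.5-fold with 111, 99.5 and 116 on day 10 and 145, 164 and 184 on day 2 (−0.59 ± 0.11, adjusted p = 0.00224). CLE45, a peptide that holds back protophloem, rose 1.42-fold, a call lost with the 6 arrays alone (adjusted p = 0.0917).

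Xylan is the main hemicellulose of secondary walls, and 2 of its 3 measured synthesis genes rose, with 0 falls. GUT2 (IRX10), which builds the xylan backbone, had 2367, 2249 and 2468 on day 10, against 1005, 1127 and 1058 on day 2, a 2.22-fold rise (1.15 ± 0.08, adjusted p = 6.29e-07). IRX15, needed for normal xylan, had 102, 90.7 and 102 on day 10, against 50.4, 63.4 and 57.8 on day 2, a 1.72-fold rise (0.78 ± 0.09, adjusted p = 4.01e-05). Its relative IRX15-L did not pass the test, with 1841, 1718 and 1754 on day 10 and 1774, 1839 and 1925 on day 2 (−0.06 ± 0.07, adjusted p = 0.571). The pools of the 2 days are apart for GUT2 and IRX15, as in most genes past the test. None of the 4 measured lignin genes passed the test: HCT, an enzyme of monolignol synthesis, stood at 0.14 ± 0.07 (adjusted p = 0.172), PRX52, a peroxidase that polymerises lignin, at −0.14 ± 0.19, and the peroxidases AT5G64120 and AT5G66390 at 0.00 and 0.02. COB, which orients cellulose in primary walls, stood at −0.15 ± 0.05 (adjusted p = 0.0588) and passed as lower in 3 alternatives.

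The genes named TRICHOME BIREFRINGENCE-LIKE, many of which acetylate wall polymers, were grouped after their values were seen: of 24, 4 rose and 4 fell. TBL33, which acetylates xylan, had 813, 966 and 948 on day 10, against 305, 346 and 310 on day 2, a 2.83-fold rise (adjusted p = 1.40e-06). TBL31 rose 3.04-fold with 91.1, 113 and 121 on day 10 and 38.6, 40.3 and 28.4 on day 2 (1.60 ± 0.13, adjusted p = 3.30e-06). The falls were TBL19, TBL30, TBL26 and TBL28, at log2 differences between −0.96 and −0.62. Among the 4 pectin modifying genes, PME61, a pectin methylesterase, rose 4.02-fold with 482, 455 and 456 on day 10, against 112, 124 and 111 on day 2 (2.01 ± 0.20, adjusted p = 1.26e-05), and PMEPCRF, another, rose 1.75-fold (0.81 ± 0.11, adjusted p = 1.43e-04). The other members of that list did not pass the test, ATPMEPCRB at −0.52 ± 0.30 (adjusted p = 0.235) and AT4G02300 at −0.01 ± 0.10. Family 9 glycosyl hydrolases, also grouped after their values were seen, went both ways: GH9B5 alone rose, while GH9B8, GH9C2, GH9B13 and GH9B7 fell by 2.53-fold, 2.11-fold, 1.7-fold and 1.16-fold, of 19 measured. The call of GH9B7 was lost in 13 of 23 alternatives (adjusted p up to 0.141).

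Expansins loosen primary walls during cell growth, and 7 of 24 fell while 0 rose. EXPA15 had 234, 261 and 253 on day 10, against 547, 606 and 636 on day 2, a 2.39-fold fall (−1.26 ± 0.11, adjusted p = 3.99e-06). EXPB3 fell 2.68-fold, EXPB2 2.55-fold, EXPA8 1.75-fold, EXPA9 1.48-fold, EXPA4 1.44-fold and EXPA20 1.3-fold. The call of EXPA4 was lost with the 6 arrays alone (adjusted p = 0.0529). The other probe set of EXPA20 did not pass the test (−0.15, adjusted p = 0.263). EXLA1, an expansin-like gene, had 1056, 831 and 1006 on day 10 and 718, 316 and 65.9 on day 2. Its day 2 pools spread over a wide range, and it missed the threshold (1.96 ± 0.71, adjusted p = 0.0621) but passed as higher in 3 alternatives, among them without day 2 replicate 1 (adjusted p = 0.0109). Of 10 xyloglucan endotransglucosylases, which cut and rejoin xyloglucan chains in walls, XTH32 fell 2.02-fold (−1.02 ± 0.07, adjusted p = 4.73e-07) and EXGT-A3 rose 1.74-fold (0.80 ± 0.18, adjusted p = 0.00539). The rise of XTH33 (0.92 ± 0.31, adjusted p = 0.043) was lost in 13 of 23 alternatives. LAC16, a laccase, fell 1.99-fold (adjusted p = 5.03e-04), and of the other multicopper oxidases sks15 rose and SKU5 fell, calls lost in 4 and 12 alternatives, while sks16 (−0.02 ± 0.20) and sks18 (−0.16 ± 0.21) did not pass the test.

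Sugar transporter genes fell in 6 of 18 measured cases, and 0 rose, with a median of −0.21. SWEET13, a sucrose exporter, had 51.4, 58 and 46.3 on day 10, against 853, 952 and 1009 on day 2, an 18.1-fold fall (−4.18 ± 0.14, adjusted p = 1.51e-09). SAG29 (SWEET15), an exporter that marks senescing leaves, had 18, 19.4 and 18.7 on day 10, against 71.3, 38.7 and 94.5 on day 2, a 3.42-fold fall (−1.77 ± 0.37, adjusted p = 0.00377). SWEET4, a hexose carrier, fell 2.42-fold with 28.6, 23.2 and 26.6 on day 10 and 55, 51.1 and 88.8 on day 2 (−1.27 ± 0.23, adjusted p = 0.0012). The pools of SWEET13, SAG29 and SWEET4 do not overlap between the days, as in most genes past the test. On day 10 SAG29 and SWEET4 lie near or below the lower quartile of an array. SWEET9, SWEET2 and TMT1, a vacuolar monosaccharide transporter, passed the test at −0.45, −0.52 and −0.24, and these calls were lost in 1, 8 and 1 alternatives. SWEET11, the phloem loading exporter, stood at 0.03 ± 0.22 (adjusted p = 0.929).

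Of 7 starch genes measured, 3 fell, all of synthesis, and 2 rose. APL3, a subunit of ADP-glucose pyrophosphorylase, had 812, 623 and 672 on day 10, against 1546, 1719 and 2023 on day 2, a 2.51-fold fall (−1.33 ± 0.13, adjusted p = 1.26e-05). APL4, another such subunit, fell 1.82-fold (−0.86 ± 0.10, adjusted p = 6.05e-05), and SBE2.2, a branching enzyme, 1.63-fold (−0.70 ± 0.08, adjusted p = 4.68e-05). AMY1, an alpha-amylase, rose 1.46-fold (0.55 ± 0.12, adjusted p = 0.00513). The symbol PWD, of a phosphoglucan, water dikinase that prepares starch for breakdown, is carried by 2 loci. AT4G24450, which also has the synonym ATGWD2, had 165, 192 and 173 on day 10, against 68.6, 81.9 and 68.6 on day 2, and rose 2.42-fold (adjusted p = 7.88e-07), while AT5G26570, with the synonym PHOSPHOGLUCAN WATER DIKINASE, did not pass the test (0.15 ± 0.08, adjusted p = 0.167). The disproportionating enzyme DPE1 stood at −0.02 ± 0.07.

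Autophagy delivers cell contents to the vacuole in vesicles coated with the ubiquitin-like ATG8 proteins. Of 10 measured genes 7 rose and 0 fell, with a median of 0.35. ATG8E had 163, 134 and 144 on day 10, against 51.7, 66.1 and 76.3 on day 2, a 2.29-fold rise (adjusted p = 4.60e-05). ATG8C rose 1.42-fold, ATG8H 1.41-fold, ATG8F 1.36-fold, ATG8B 1.27-fold and ATG3, the enzyme that attaches ATG8 to lipid, 1.27-fold. The rise of ATG8H was lost in 3 alternatives (adjusted p up to 0.128 with the 6 arrays alone). The rise of ATG8D (0.24 ± 0.07, adjusted p = 0.0173) was lost in 5 alternatives, up to an adjusted p of 0.0778 with the 6 arrays alone. APG8A (ATG8A), APG8H (ATG8I) and ATG8G did not pass the test, at −0.25, −0.09 and −0.01. Of 3 senescence genes measured, SAG29 fell, and SAG101 (0.41 ± 0.18, adjusted p = 0.13) and WRKY6 (−0.10 ± 0.10) did not pass the test.

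Genes that respond to ABA, cold and drought went both ways, with 3 falls and 2 rises among 9 and a median of −0.18. KIN1, a small cold and ABA induced protein, had 23.9, 19.2 and 18 on day 10, against 111, 112 and 98.8 on day 2, a 5.29-fold fall (−2.40 ± 0.19, adjusted p = 2.74e-06). Its day 10 pools lie below the lower quartile of an array. COR15A, which protects chloroplast membranes in the cold, had 839, 780 and 876 on day 10, against 2899, 3132 and 3676 on day 2, a 3.88-fold fall (−1.95 ± 0.10, adjusted p = 1.11e-07). Their close relatives KIN2 (COR6.6) and COR15B did not pass the test, at −0.12 ± 0.08 and −0.18 ± 0.10. COR27, a cold-regulated gene that also acts on the clock, had 1038, 1134 and 1041 on day 10, against 348, 418 and 437 on day 2, a 2.68-fold rise (1.42 ± 0.16, adjusted p = 4.56e-05). The drought-induced linker histone HIS1-3 had 103, 118 and 113 on day 10, against 36.4, 43.8 and 53.9 on day 2 (1.33 ± 0.27, adjusted p = 0.00326). The dehydrin LTI30 fell by 1.38-fold, a call lost in 5 alternatives (adjusted p up to 0.0933 without day 10 replicate 2), and COR47 stood at −0.03 ± 0.19.

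Of the other hormones, auxin genes fell in 4 of 13 measured cases, and 0 rose. GH3.3, which links auxin to amino acids and is itself induced by auxin, had 47.1, 43.6 and 43.7 on day 10, against 199, 163 and 172 on day 2, a 3.96-fold fall (−1.99 ± 0.11, adjusted p = 1.61e-07). GH3.17 fell 3.18-fold (−1.67 ± 0.13, adjusted p = 2.68e-06) and WES1 (GH3.5) 1.56-fold, opposite to GH3.9. LBD16, a factor downstream of auxin in lateral root initiation, fell 1.63-fold (−0.71 ± 0.11, adjusted p = 5.30e-04). The gibberellin receptors GID1A, GID1B and GID1C and the DELLA-degrading F-box protein SLY1 did not pass the test, at 0.19, −0.31, 0.27 and −0.02, although GID1A passed in 4 alternatives. Jasmonate genes went both ways: the transcription factors MYC4 and MYC3 rose 1.94-fold and 1.48-fold, and the defensin PDF1.2 fell 1.99-fold, while the jasmonate methyltransferase JMT stood at 0.37 ± 0.15 (adjusted p = 0.0783) and passed as higher in 2 alternatives. EIN3, the main transcription factor of ethylene, rose by 0.26 ± 0.05 on the log2 scale (adjusted p = 0.00267). RTE1, which acts on the ethylene receptor ETR1 and is the other ethylene gene measured, fell 1.17-fold (−0.23 ± 0.07, adjusted p = 0.0224), a call lost in 5 alternatives (adjusted p up to 0.131).

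Flowering genes went in both directions, with 4 falls and 2 rises among 10. ATC, a relative of the florigen FT that represses flowering, had 65.5, 38.4 and 50.9 on day 10, against 867, 886 and 996 on day 2, an 18.1-fold fall (−4.18 ± 0.19, adjusted p = 2.38e-08). AGL24, a promoter of flowering, fell 1.68-fold (−0.75 ± 0.09, adjusted p = 5.18e-05). AGL42, a MADS-box gene of the SOC1 clade, had 183, 132 and 129 on day 10, against 45, 60.4 and 55.2 on day 2, a 2.75-fold rise (1.46 ± 0.14, adjusted p = 1.07e-05). FD, the bZIP partner of FT, rose 1.52-fold (0.61 ± 0.10, adjusted p = 5.97e-04). The falls of the repressors SNZ (−0.54 ± 0.13) and SMZ (−0.29 ± 0.09) were lost with the 6 arrays alone, that of SMZ also in 3 further alternatives (adjusted p up to 0.0643 and 0.0865). All 3 clock and photoperiod genes rose: GI, which links the clock to flowering, had 1025, 1110 and 1056 on day 10, against 518, 627 and 726 on day 2, a 1.72-fold rise (0.78 ± 0.11, adjusted p = 2.52e-04). FIO1 and TIC rose by 0.37 and 0.30, calls lost with the 6 arrays alone and, for TIC, also without day 2 replicate 1 or day 10 replicate 2. GI transcripts cycle over the day, and the part of harvest hour in this change was not tested.

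Families of secondary metabolism and defence were divided. Of 55 UDP-glycosyltransferases 10 rose and 8 fell, with a median of 0.04, shares close to those over all genes. Outside the flavonoid enzymes, UGT85A7, UGT71C1 and UGT88A1 fell 1.88-fold, 1.57-fold and 1.46-fold. UGT73B5, UGT73B2, UGT85A2 and UGT71C5 rose 2.43-fold, 1.95-fold, 1.83-fold and 1.77-fold. The call of UGT74D1 rests on 1 of its 2 probe sets, which give 0.69 and −0.58, and so does that of UGT76E12, with 0.42 and 0.04. Of 14 glutathione transferases 3 rose and 3 fell: GSTU20 had 180, 166 and 165 on day 10, against 474, 492 and 498 on day 2, a 2.87-fold fall (−1.52 ± 0.09, adjusted p = 1.88e-07), and GSTF3 rose 2.33-fold (1.22 ± 0.18, adjusted p = 3.21e-04). GSTU26 and GSTU18 also fell, by 2.57-fold and 2.04-fold, and GSTU15 and GSTU23 also rose, by 1.74-fold and 1.53-fold. Of 18 genes listed as chitinases and defensins by name or by the symbol stem PDF, 5 fell and 1 rose. LCR68 fell 4.2-fold with 19.3, 20.5 and 23.5 on day 10, against 88.5, 84.4 and 92.3 on day 2 (−2.07 ± 0.11, adjusted p = 1.21e-07). The day 10 pools of LCR68 lie below the lower quartile of an array. LCR69, PDF1.4 and the chitinase ChiC fell 2.57-fold, 2.38-fold and 1.52-fold. The single rise, of PDF1A (0.20 ± 0.06), was lost in 9 alternatives. PDF1A and PDF1B entered the list by that stem alone and are not defensins. Serine carboxypeptidase-like genes, grouped after their values were seen, fell in 8 and rose in 5 of 32 cases. The largest falls there were scpl26 and scpl28, at 2.77-fold and 2.52-fold, which are neighbours on the chromosome. Of 10304 pairs of neighbouring genes with both measured, 36 had both genes changed by at least 2-fold. Of these pairs, 11 had both higher, 16 had both lower and 9 went in opposite directions. Over all genes, 1.52% rose and 2.13% fell by at least 2-fold. How many pairs these shares alone would give was not worked out, so no grouping along the chromosome is read from the count. Probe sequence shared between related neighbours was not tested.

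Day 4, also in long days, shows when these differences arose, and since its contrasts share arrays with the main one the values stand only side by side. In the 251 genes that rose by at least 2-fold, the day 4 mean lay between those of day 2 and day 10 in 234, and the median gene had made 33.1% of its change by day 4 (quartiles 18.7% and 47.6%). In the 353 genes that fell, it lay between in 297 and beyond day 2 in 55, and the median was 30.4% (quartiles 13.1% and 48.1%). On the log2 scale AT5MAT differed by −0.88 between day 4 and day 2 and by −3.74 between day 10 and day 4. The matching values were −0.28 and −2.93 for DFR, 0.07 and −2.68 for JAL23, and −0.15 and −0.99 for NAI1. PRK had −1.12 by day 4 and −1.21 after it. AUR1 had −0.88 by day 4 and −0.55 after it. PRK and AUR1 thus made more of their fall by day 4 than the pigment and ER body genes did, a difference that was not tested. SWEET13 stood at 0.30 between day 4 and day 2 (adjusted p = 0.24) and at −4.48 between day 10 and day 4 (adjusted p = 1.36e-09). GUT2 rose by 0.29 by day 4 (adjusted p = 0.0493) and by 0.86 after it (adjusted p = 1.49e-05).

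Day 0, in short days, shows whether day 10 was a return. In 38 of the 251 genes that rose and in 64 of the 353 that fell, the day 0 mean was nearer to day 10 than to day 2. Mean intensities of GI were 1768, 508, 618, 872 and 1063 on days 0, 1, 2, 4 and 10. AUR1 had means of 531, 1036, 1074, 585 and 401 on the same days, so its levels were highest on days 1 and 2. For SWEET4 they were 24.8, 22, 63, 107 and 26.1, with day 10 close to day 0. DFR had 7367, 7416, 7272, 5998 and 785, flat to day 2 and lower after it. GH9B5 had 228, 238, 248, 491 and 1775, likewise flat to day 2 and higher after it.

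**Figure D4:**
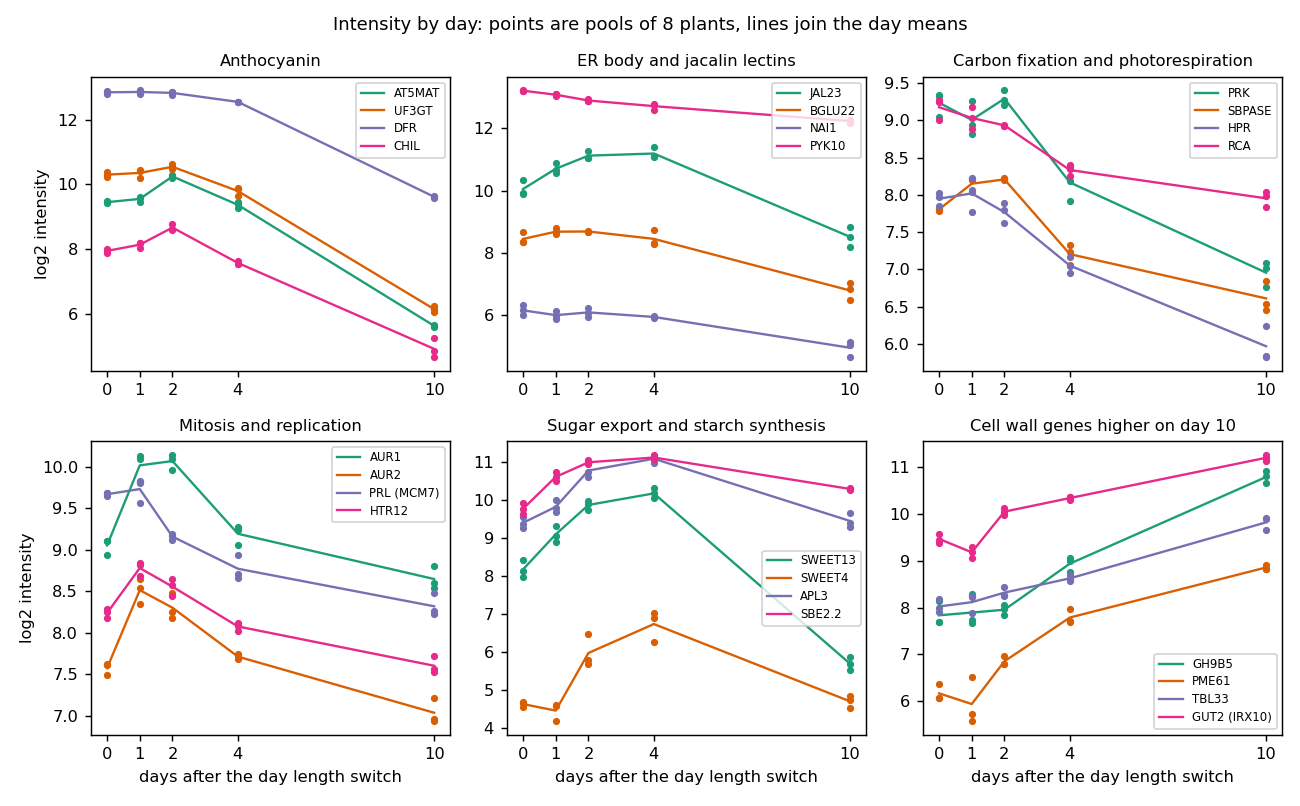
Log2 intensity of 24 genes in 6 groups against days after the day length switch, with pools of 8 plants as points and lines through the day means. Anthocyanin genes drop mainly after day 4, AUR1 and AUR2 peak on days 1 and 2, and the wall genes climb to day 10.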

How the data were processed

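Biotin-labelled RNA of 15 hypocotyl pools was measured on arrays. The deposited values are normalised probe set intensity on a linear scale, made by the authors, with RMA and Partek named in the submitters' processing notes. The sources used here give neither their versions nor their roles, and no background correction. Array medians ran from 84.1 to 90.6. The values were taken to log2 with no pseudocount, filter or further scaling.

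Limma 3.58.1 in R 4.3.3 was fitted with 1 mean per day over all 15 arrays (10 residual degrees of freedom), so all days share 1 estimate of the spread, whose median residual SD was 0.18 on the log2 scale. The contrast was day 10 minus day 2, two-sided, with Benjamini-Hochberg adjustment over all 38408 probe sets and a threshold of 0.05. Each fold divides 1 geometric mean of 3 pools by another, and errors are SE of the log2 difference. The p-values rest on how pools of separate plants differ, and with 3 arrays a day their number sets the precision. The fit was tested on simulated data. Tables and figures were made with Python 3.11.15, pandas 2.3.3 and matplotlib 3.10.9.

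Of the probe sets, 16722 have exactly 1 gene in the platform annotation, 759 several and 20927 none, and 16574 of the 16722 matched the RefSeq gene table (TAIR10.1). Where several probe sets measure a gene, the brightest over all arrays was used. Named are the 12 largest rises and falls, the 8 largest with a symbol, up to 6 called members of each list in each direction by adjusted p, and every measured member of lists with 5 or fewer. The largest changes were taken among genes whose pools do not overlap. Of 66 gene lists, 38 had at least 3 measured members, 12 had 1 or 2, and 16 had none. The lists by symbol hold 1131 entries, of which 149 were matched by symbol or synonym to a gene with a probe set of its own. Only these count as measured, and a gene that the annotation holds under a locus tag alone can be missed by its list. Members, lists and alternatives were chosen with earlier results of these data known. A list described as grouped after its values were seen supports no direction. Membership of the plastid list was taken from the chromosome name. The mitochondrial list holds genes without a match in the RefSeq table whose symbols have stems such as nad, cox, atp and rpl. Plastid genes share some of these stems, so a plastid gene without a match could be among them. Both rules were chosen after seeing the data. Promoter motifs were not analysed here.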

Additional observations from a re-analysis of the deposited data

How the results depend on the processing

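In the 23 alternatives no named gene that passed the test in either fit changed direction. Of 172 named genes past the test, 135 stayed past it under every alternative run. Over 4788 values of single genes, 171 calls were lost and 13 gained. The number of called probe sets was 10300 and ran from 8484 to 10178 when single arrays were left out. With only the 6 arrays of both days it was 7090, with 1583 higher in place of 2454 among probe sets with 1 gene and 1537 lower in place of 2137. That fit has fewer arrays behind its estimate of the spread. Higher calls made up 53.5% of calls, 48.0% with arrays centred on their medians, 49.6% with cyclic loess and 50.5% with quantile normalization. Without the dimmest 25% of probe sets 10705 were called. Of 1824 counts of list members, 1683 stayed within 1.5 times.

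Replicate numbers were not used to pair the pools in the main fit. Deviations of same-numbered pools of day 10 and day 2 correlated at −0.031 to 0.040 across probe sets. Over all pairs of days the range was −0.160 to 0.118. These values cannot show whether same-numbered pools were grown or handled together, which was not tested. With the replicate block 9746 probe sets were called, 2335 with 1 gene higher and 2039 lower.

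Each group has 3 pools, and dim probe sets limit the folds of genes near the lower quartile. Results for lists cover only the genes that a probe set with 1 gene measures and that the annotation's symbols or synonyms match.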

Other observations

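Several further gene groups had few changes or went both ways. Of 67 AGAMOUS-like MADS-box genes, grouped after their values were seen, 6 rose and 4 fell. AGL21, a MADS-box gene known from root growth, had intensities of 204, 195 and 200 on day 10, against 84.1, 84.2 and 88.3 on day 2, and rose 2.34-fold (1.22 ± 0.09 SE, limma adjusted p = 1.00e-06). AGL78 had 12.2, 26.9 and 13.8 on day 10, against 53.6, 70.8 and 52 on day 2, and fell 3.53-fold (−1.82 ± 0.30, adjusted p = 6.41e-04). Of 67 low-molecular-weight cysteine-rich genes, also grouped after their values were seen, 8 fell and 0 rose, with a median of −0.06. Of 30 genes listed as cytochromes P450 by name or by the symbol stem CYP, 4 rose and 3 fell. That stem is shared by cyclophilins, so the list holds some of them, among them AT4G33060. CYP71B23 rose 1.94-fold (0.95 ± 0.12, adjusted p = 9.53e-05). CYP78A9, of a family that promotes organ growth, fell 1.7-fold (−0.77 ± 0.14, adjusted p = 0.00176). The calls of CYP71B5, CYP84A4, CYP71B19, CYP71B28 and AT4G33060 were lost in 13, 14, 4, 5 and 8 alternatives.

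Of 8 class III peroxidases PRXCA (PRX33), which makes reactive oxygen in defence, fell 1.75-fold (−0.81 ± 0.14, adjusted p = 0.00122) and the other 7 did not pass the test. Of 7 WRKY factors WRKY22, of the immune response, had 52.6, 43.5 and 54.6 on day 10, against 120, 108 and 68.3 on day 2, and fell 1.92-fold (−0.94 ± 0.20, adjusted p = 0.00444). Of 7 tubulins 1 passed the test, TUB7 at −0.51 ± 0.11, lost with the 6 arrays alone (adjusted p = 0.0648). Of 6 late embryogenesis abundant proteins 2 fell, AT1G54410 by 1.47-fold and AT2G44060 by 1.18-fold, the second lost in 4 alternatives. NRT2.5, a nitrate transporter of starved plants, had 43.2, 61.8 and 41.4 on day 10, against 18.6, 25.6 and 29.5 on day 2, and rose 1.99-fold (0.99 ± 0.19, adjusted p = 0.002). The response regulator ARR15, which damps cytokinin signalling, fell 1.52-fold (adjusted p = 0.0148), a call lost without day 10 replicate 2 (adjusted p = 0.0594), and RR16, of the same family, stood at 0.15 ± 0.20. AKINBETA1, a subunit of the SnRK1 energy-sensing kinase, rose 1.37-fold (0.45 ± 0.09, adjusted p = 0.00232). Members of other short lists did not pass the test: the redox genes GRX480, ROXY1 and ROXY2 stood at −0.09, 0.00 and −0.06, the chaperone BIP1 at 0.02, MCCB at −0.11 and BGLU28 at −0.11. The brassinosteroid receptor gene BRL1 stood at 0.15 ± 0.06 (adjusted p = 0.107) and passed as higher in 1 alternative.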
